A study of Mus musculus with 36 samples.

Results

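Astrocytes take up water, potassium and glutamate from the space around neurons, pass ions and metabolites to each other through gap junctions, and convert glutamate to glutamine. The genes that serve these functions, together with the factors that keep a cell an astrocyte, are often called homeostatic. In reactive astrocytes this set is known to be partly lowered while inflammatory genes rise. 10 such genes were examined here in cultured mouse astrocytes. Aqp4 encodes the water channel of the astrocyte endfoot. Gja1 and Gjb6 encode connexin 43 and connexin 30, the main gap junction proteins of astrocytes. Glul encodes glutamine synthetase, Aldh1l1 a folate enzyme and Aldoc the brain aldolase of glycolysis. Sox9 is a transcription factor of the glial lineage, and Fgfr3 is a receptor for fibroblast growth factors. Clu encodes the secreted chaperone clusterin, and S100b a calcium-binding protein. The genes were chosen by name, and all 10 were found among the 14551 genes of the astrocyte table and among the 13842 of them that passed the filter on low values.

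The study asked how kinase activity of RIPK1, a kinase of the tumor necrosis factor (TNF) receptor pathway, changes gene expression in glia. Astrocytes came from pooled brains of C57BL/6 pups aged 2 to 4 days, grown as mixed glia for 12 days and taken by a selection kit from the cells left after removal of CD11b-positive microglia, so they are a positively selected fraction of a mixed culture and not a sorted pure population. Cells were treated for 4 hours with DMSO (the solvent control), with Nec-1s (a RIPK1 kinase inhibitor), with TNF/Smac/zVAD (T/S/Z, where a Smac mimetic and the caspase inhibitor zVAD turn TNF signaling toward RIPK1 activation) or with all of these, TNF/Smac/zVAD/Nec-1s (T/S/Z/N). Each group had 3 libraries. All cells were wild type. The labels do not say whether replicates were separate cultures. The study's methods define replicates in general as biological, for cultured cells those from different litters, without naming these libraries, and p-values measure the spread between these libraries.

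Values are the deposited log2(FPKM + 1), where FPKM is a fragment count scaled for exon length and library size, so levels can be set side by side between genes. Changes are log2 differences with their standard error (SE) from limma with the replicate number as a block, and p-values were adjusted over all 13842 genes. A gene was called when its adjusted p was under 0.05 and its change was over 1.5-fold on this scale. The spacing of the lowest values gave an estimated depth of 42.6 to 44.8 M counted units per astrocyte library, and the values do not settle whether a unit is a read or a read pair. At this depth Gjb6 rested on 48 to 230 units per library and each other gene on at least 1688, so counting error mattered most for Gjb6. Within bulk RNA, fewer cells of a type and less RNA per cell cannot be told apart.

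RefSeq start-site windows (250 bases before to 50 after a start, GRCm38.p6) were at hand for 7 of the 10 genes. The sequence before the start is printed for Gja1, Gjb6 and Fgfr3, which were lowered by T/S/Z. Transcription factor families that the study names as putative regulators bind short DNA motifs. The study predicted NF-kB and AP-1 factors for astrocytes and for microglia, and named Sp1 factors for microglia. Its predictions concern genes that depended on RIPK1 kinase, and Gja1, Gjb6 and Fgfr3 were not called when Nec-1s was added to T/S/Z. They lie at chr10:56377050-56377299 (plus strand), chr14:57133612-57133861 (minus strand) and chr5:33721474-33721723 (plus strand). Capitals mark the motif matches.
Gja1: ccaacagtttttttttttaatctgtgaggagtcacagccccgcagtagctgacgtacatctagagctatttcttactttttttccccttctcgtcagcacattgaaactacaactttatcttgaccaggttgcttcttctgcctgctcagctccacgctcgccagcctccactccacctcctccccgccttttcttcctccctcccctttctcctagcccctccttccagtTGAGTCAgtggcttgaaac
Gjb6: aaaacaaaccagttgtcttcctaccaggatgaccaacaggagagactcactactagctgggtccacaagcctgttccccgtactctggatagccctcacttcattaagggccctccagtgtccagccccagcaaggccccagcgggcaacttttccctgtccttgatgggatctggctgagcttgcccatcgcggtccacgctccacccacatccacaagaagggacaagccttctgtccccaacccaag
Fgfr3: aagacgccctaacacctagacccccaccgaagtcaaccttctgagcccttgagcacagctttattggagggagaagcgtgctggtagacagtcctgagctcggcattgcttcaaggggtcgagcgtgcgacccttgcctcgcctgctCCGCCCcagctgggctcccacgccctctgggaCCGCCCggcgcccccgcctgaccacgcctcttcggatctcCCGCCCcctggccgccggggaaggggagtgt
Searched on both strands of the full 300-base windows were the AP-1 motif TGANTCA, the NF-kB motif GGANNTTCC and the GC box GGGCGG, which Sp1 proteins bind. Gja1 held a match to TGANTCA that begins 19 bases before its start, a motif found in 7.81% of all 32851 windows. Fgfr3 held 4 GC boxes in this window, which read CCGCCC on the printed strand, with 3 in the printed part and 1 after the start. A GC box was found in 35.7% of all windows. Gjb6 held none of the 3 motifs. GGANNTTCC, found in 4.26% of all windows, was in no window of the 7 genes, and a GC box was also in those of Glul, Aldh1l1 and Aldoc. Matches of different motifs did not overlap. These are matches of letters and not binding sites, and binding was not measured.

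In DMSO the 10 genes spanned a wide range of levels. Clu was highest at 9.63 ± 0.0453 (SD, n = 3) on the log2 scale, followed by Aqp4 at 8.34, Gja1 at 8.03, Aldoc at 7.95, Glul at 7.47 and Aldh1l1 at 6.81. Sox9 (5.50), S100b (4.97) and Fgfr3 (4.63) formed the lower part, and Gjb6 stood apart at 1.30 ± 0.0750. The library values of Gja1 and Aldoc overlapped, and those of each other pair of neighbours in this order did not. After T/S/Z, Aldoc at 7.95 and Glul at 7.20 were above Gja1 at 7.18, with the libraries of Glul and Gja1 overlapping. S100b (4.82) was then above Sox9 (4.68), again with overlapping libraries.

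**Figure D1:**
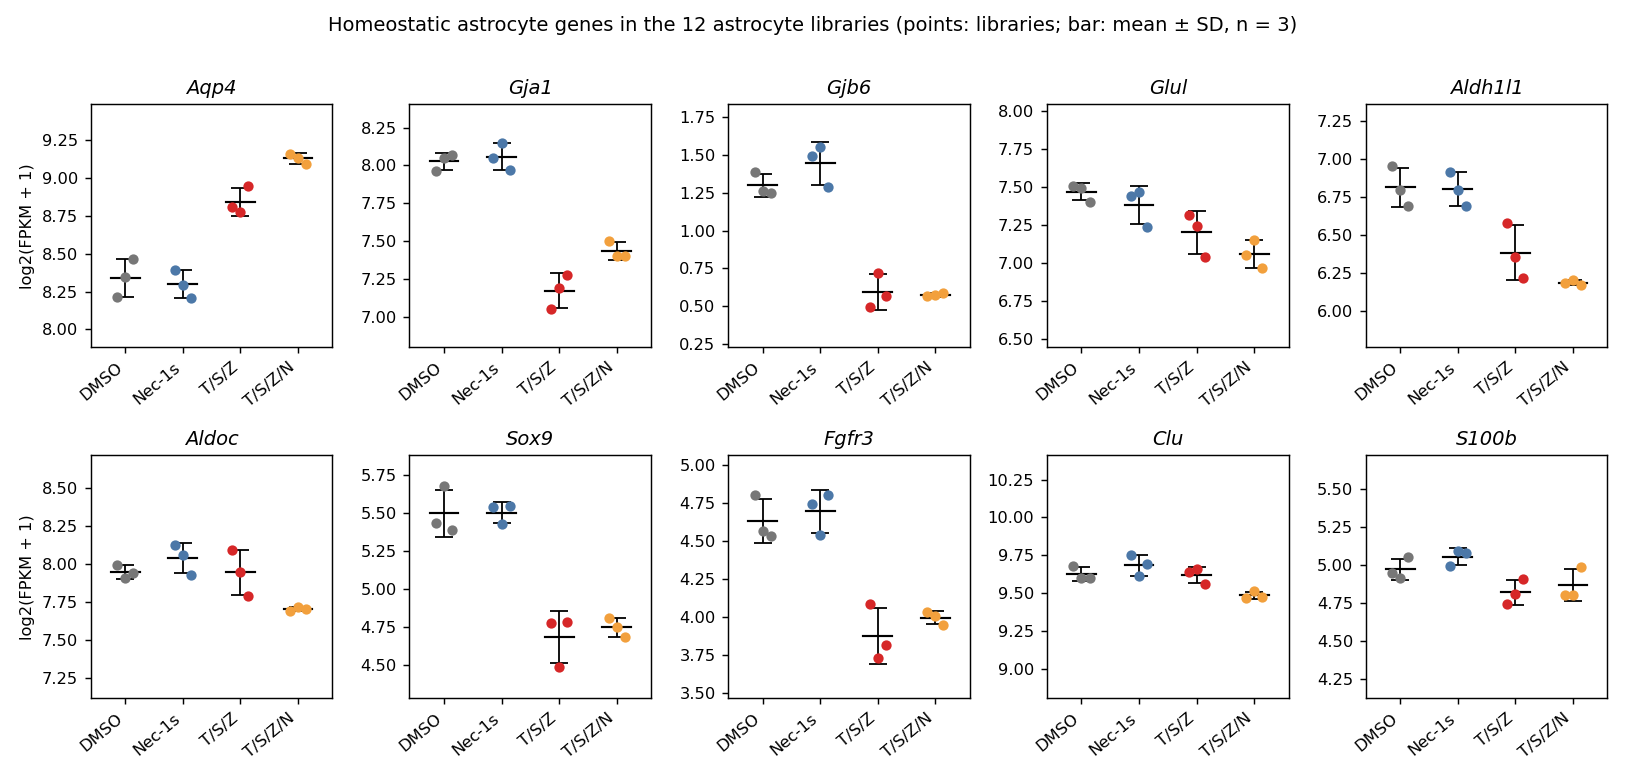
Level of each gene as log2(FPKM + 1) in the 12 astrocyte libraries by treatment; points are libraries, the horizontal bar is the mean and the error bar the SD (n = 3), and each vertical axis spans the same width on the log2 scale. Gja1, Gjb6, Sox9 and Fgfr3 sit lower in both groups that received T/S/Z, Aqp4 sits higher, and Clu, Aldoc and S100b move little with T/S/Z.

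T/S/Z against DMSO asks how the necroptotic stimulus moves these genes. Gja1, Sox9, Fgfr3 and Gjb6 were lowered by 1.63-fold to 1.81-fold on the log2(FPKM + 1) scale, Aqp4 was raised by 1.41-fold, and Aldh1l1 and Glul fell by less than the 1.5-fold limit. Clu, Aldoc and S100b did not pass the test. So 4 of the 10 genes were called lower, beside 8.99% of all tested genes, and 0 were called higher, beside 6.39%. The 4 lower calls became 2 without replicate 1 and 0 with ordinary per-gene variance in place of limma's moderated variance. By adjusted p alone 6 were lower, beside 26.9% of all tested genes, and 1 was higher, beside 13.5%. These counts became 5 lower without the replicate block, since Glul no longer passed, 3 lower and 0 higher without replicate 1, and 0 in either direction with ordinary per-gene variance. The median change of the 10 genes was -0.35, beside -0.11 over all tested genes. Among all calls 41.5% were higher, a share that became 52.1% when the libraries were quantile normalized.

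Aqp4 (ENSMUSG00000024411), the water channel gene, was the gene of the 10 that rose. Its DMSO libraries had 8.21, 8.35 and 8.46. The T/S/Z libraries had 8.81, 8.77 and 8.94. All 3 T/S/Z libraries were above all 3 DMSO libraries, and the change of 0.50 (SE 0.0789, limma adjusted p = 0.00279) was under the 1.5-fold limit. Without replicate 1 it did not pass (limma adjusted p = 0.0548). With Nec-1s added, the T/S/Z/N libraries had 9.16, 9.13 and 9.09, above every T/S/Z library. Against DMSO the rise was then 0.79 (SE 0.0784, limma adjusted p = 0.00127), a 1.72-fold call. The further rise from T/S/Z to T/S/Z/N was 0.29 (SE 0.0903, limma adjusted p = 0.0911) and did not pass. It passed the adjusted p, under the 1.5-fold limit, when all 12 libraries were fitted together (limma adjusted p = 0.0328) and without replicate 3 (limma adjusted p = 0.0340). In FPKM the group means were 324 ± 28.2 in DMSO, 458 ± 29.3 with T/S/Z and 558 ± 12.9 with T/S/Z/N (SD, n = 3). An antisense RNA lies opposite an intron of Aqp4. The libraries were strand-specific, but whether the counting used strand is not given in the sources used here.

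Gja1 (ENSMUSG00000050953, chr10:56377330-56402513, plus strand) is the connexin 43 gene. With all replicates it had the largest fall of the 10 on the log2(FPKM + 1) scale, whereas in the ratio of mean FPKM Gjb6 fell further. Sox9 fell further than Gja1 without replicate 1 (-0.90 beside -0.82) and without replicate 3. For Gja1, all libraries are given here. DMSO libraries had 7.97, 8.05 and 8.07. T/S/Z libraries had 7.05, 7.19 and 7.28. Every T/S/Z library was below every DMSO library, and the change was -0.85 (SE 0.0718, limma adjusted p = 0.000156). T/S/Z/N libraries had 7.50, 7.40 and 7.40, above every T/S/Z library and below every DMSO library. The rise with added Nec-1s was 0.26 (SE 0.0933) and did not pass (limma adjusted p = 0.118). In the fit of all 12 libraries the same rise passed the adjusted p (limma adjusted p = 0.0325), as it did without replicate 3 (0.33, limma adjusted p = 0.0434), both under 1.5-fold. It equals 30.6% of the fall with all replicates. Against DMSO, T/S/Z/N left Gja1 lower by a change of -0.59 (SE 0.0679, limma adjusted p = 0.00212), just past the 1.5-fold limit. This call was lost in 5 of 11 alternative settings, among them median centring (-0.54) and the fits without replicate 2 or replicate 3. Mean FPKM went from 260 ± 9.72 in DMSO to 144 ± 11.3 with T/S/Z and 172 ± 6.90 with T/S/Z/N.

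Gjb6 (ENSMUSG00000040055, chr14:57123303-57133611, minus strand), the connexin 30 gene, had the lowest level. DMSO libraries had 1.38, 1.26 and 1.25. T/S/Z libraries had 0.49, 0.72 and 0.57. T/S/Z/N libraries had 0.57, 0.57 and 0.59. All 6 libraries that received T/S/Z were below the 6 that did not, and the change with T/S/Z was -0.70 (SE 0.118, limma adjusted p = 0.00369). Gjb6 passed the filter on low values, a log2 value of at least 1 in at least 3 libraries, only through the DMSO and Nec-1s libraries, where it was high. With no filter its change was the same (limma adjusted p = 0.00555). Because 1 is added before the log, this scale understates the change of a low gene. In FPKM the means were 1.46 ± 0.130 in DMSO, 0.514 ± 0.124 with T/S/Z and 0.492 ± 0.0125 with T/S/Z/N. Adding Nec-1s changed Gjb6 by -0.02 (SE 0.0998, limma adjusted p = 0.921). Without replicate 1, the call with T/S/Z was lost (limma adjusted p = 0.0529).

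The other connexins were taken from a list of 12 connexins and pannexins, of which 8 were tested. With T/S/Z, 3 were called higher and 0 lower. Among those called, Gja5 (connexin 40) changed by 0.78 (SE 0.106, limma adjusted p = 0.00146), and it passed the filter on low values only through the libraries that received T/S/Z, where it was high. Gjb2, which encodes connexin 26 and lies near Gjb6 on chromosome 14, was at 3.14 in DMSO and 3.40 with T/S/Z and was not called (limma adjusted p = 0.0715). With Nec-1s added to T/S/Z, 3 were called lower and 0 higher, and Gjb2 had a change of -0.70 (limma adjusted p = 0.00691). Gjc1 (-0.06), Gjc3 (-0.56), Gja4 (0.03) and Panx1 (-0.24) were not called with T/S/Z.

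**Figure D2:**
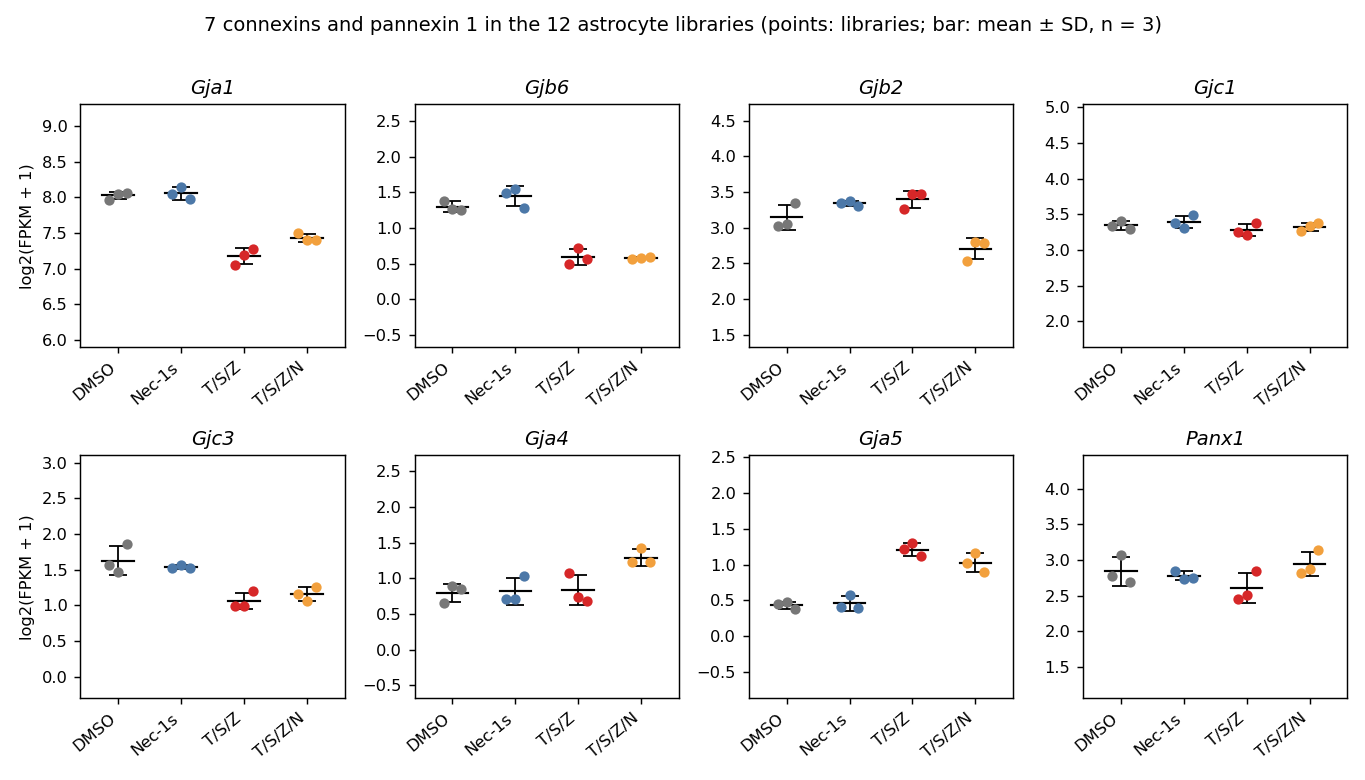
Level of 7 connexin genes and Panx1 as log2(FPKM + 1) in the 12 astrocyte libraries; points are libraries, bars are mean and SD (n = 3), and each vertical axis spans the same width. Gja1 and Gjb6 are lower with T/S/Z than in DMSO, whereas Gja5 is higher, by 0.78.

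A further list held 9 genes of the dystrophin-associated complex and its ligand agrin, which anchor aquaporin-4 at the endfoot, and Megf10, a phagocytic receptor of astrocytes that is no part of it. Of the 9, 0 were called higher and 1 lower with T/S/Z, and Megf10 was also called lower. Dmd (dystrophin) had a change of -0.69 (SE 0.0796, limma adjusted p = 0.000704), and Megf10 was 2.005-fold lower (SE 0.0990 on the log2 scale, limma adjusted p = 0.000337). The median of the 9 was -0.07, beside -0.11 over all tested genes.

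Of the 3 metabolic genes, Aldh1l1 and Glul fell by less than 1.5-fold and Aldoc did not pass the test with T/S/Z. Aldh1l1 (ENSMUSG00000030088, chr6:90486427-90600203, plus strand) had 6.95, 6.80 and 6.69 in DMSO. It had 6.58, 6.36 and 6.22 with T/S/Z, all below DMSO, and the change was -0.43 (SE 0.0688, limma adjusted p = 0.00296). The T/S/Z/N libraries had 6.18, 6.20 and 6.17, below every T/S/Z library, and the change from DMSO was then -0.63 (SE 0.0712, limma adjusted p = 0.00200), which was called. That call fell under the 1.5-fold limit with median centring (-0.58) and without replicate 1 (-0.56). Glul (ENSMUSG00000026473, chr1:153899944-153909723, plus strand) had 7.51, 7.50 and 7.40 in DMSO. It had 7.32, 7.24 and 7.04 with T/S/Z, again without overlap, a change of -0.27 (SE 0.0735, limma adjusted p = 0.0247). The limma adjusted p of Glul rose past the threshold when the replicate block was dropped (0.0585), with median centring (0.0626) and when any 1 replicate was left out (0.0658 to 0.0994). In T/S/Z/N it had 7.05, 7.15 and 6.96, a change from DMSO of -0.41 (SE 0.0606, limma adjusted p = 0.00534) that did not pass without replicate 2 (limma adjusted p = 0.0539). Exons of both genes overlap other annotated genes (Gm45901 and Gm15756 with Aldh1l1, Teddm2 and Mir8114 with Glul), so part of their reads could be assigned differently.

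Aldoc (ENSMUSG00000017390, chr11:78322968-78327781, plus strand) had 8.00, 7.91 and 7.94 in DMSO and 8.10, 7.95 and 7.79 with T/S/Z. The T/S/Z libraries lay on both sides of DMSO, and the change was -0.003 (SE 0.0808, limma adjusted p = 0.977). The T/S/Z/N libraries had 7.69, 7.72 and 7.70. They were below every DMSO library, a change of -0.24 (SE 0.0604, limma adjusted p = 0.0304) that was under the 1.5-fold limit and did not pass when any 1 replicate was left out (limma adjusted p = 0.0520 to 0.157). Of 7 tested aldolase and glycogen genes, 0 rose and 2 fell with T/S/Z. The latter were Ppp1r3c, a glycogen-targeting phosphatase subunit (-1.16, SE 0.114), and Pygb, brain glycogen phosphorylase (-0.82, SE 0.0677), with limma adjusted p = 0.000328 and 0.000146. The other aldolase tested, Aldoa, was at a change of 0.22 and not called. Among 13 folate and one-carbon enzymes, Amt alone was called (-0.61, SE 0.0911, limma adjusted p = 0.00209), and the list's median was -0.19.

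Glutamine synthetase works on glutamate that transporters bring in, and of 12 tested genes for glutamate and ion handling 5 were called lower and 0 higher with T/S/Z. Kcnj10, which encodes an inwardly rectifying potassium channel of astrocytes, changed by -0.79 (SE 0.0902, limma adjusted p = 0.000647) and its partner Kcnj16 by -0.77 (SE 0.0948, limma adjusted p = 0.000910). Slc38a3, a glutamine transporter gene, was also among those called (-0.59). The list's median change was -0.34. The glutamate transporter genes Slc1a2 (-0.22) and Slc1a3 (-0.06), named after their values were seen, were not called.

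The transcription factor and the growth factor receptor both fell. Sox9 (ENSMUSG00000000567, chr11:112782224-112787760, plus strand) had 5.44, 5.68 and 5.39 in DMSO. Under T/S/Z it had 4.77, 4.49 and 4.79. Every T/S/Z library was below every DMSO library, and the change was -0.82 (SE 0.121, limma adjusted p = 0.00208). T/S/Z/N libraries had 4.81, 4.75 and 4.68, within the range of T/S/Z or just above it. The change on adding Nec-1s was 0.07 (SE 0.0984, limma adjusted p = 0.683), 8.09% of the fall, and against DMSO Sox9 stayed lower by a change of -0.75 (SE 0.0805, limma adjusted p = 0.00168). Without replicate 1 the T/S/Z call was lost (limma adjusted p = 0.0575).

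Fgfr3 (ENSMUSG00000054252, chr5:33721674-33737068, plus strand) had 4.80, 4.57 and 4.53 in DMSO and 4.08, 3.73 and 3.82 with T/S/Z. The groups did not overlap, and the change was -0.76 (SE 0.0780, limma adjusted p = 0.000410). Its T/S/Z/N libraries had 4.03, 4.00 and 3.95, inside the T/S/Z range. The change on adding Nec-1s was 0.12 (SE 0.0983, limma adjusted p = 0.451), 15.6% of the fall, and the change from DMSO was -0.64 (SE 0.0767, limma adjusted p = 0.00250). The latter was under the 1.5-fold limit with a pseudocount of 5 (-0.53) and without replicate 1 (-0.57). The mean FPKM of Fgfr3 was 23.9 ± 2.57 in DMSO and 13.8 ± 1.94 with T/S/Z, and that of Sox9 was 44.4 ± 5.00 and 24.8 ± 2.94. An exon of Fgfr3 overlaps the unspliced gene model G630022F23Rik on the other strand.

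The related receptors stayed under the 1.5-fold limit with T/S/Z. Fgfr2 had a change of -0.57 (limma adjusted p = 0.00150) and Fgfrl1 of 0.27 (limma adjusted p = 0.0317). Fgfr1 was at -0.10 and did not pass (limma adjusted p = 0.273). Of 13 tested FGF receptors and targets, Spry2, a feedback inhibitor of the pathway, was called higher (0.99, SE 0.0770, limma adjusted p = 0.000103). Etv5 (-0.80, SE 0.0731) and Etv1 (-0.72, SE 0.110), ETS factors that FGF signaling induces, were called lower (limma adjusted p = 0.000228 and 0.00239). The list's median was 0.02. Among 20 tested transcription factors of astrocytes other than Sox9, 7 were called lower and 0 higher, and the median was -0.40. The same list held the receptors Notch1 (-0.38, not called) and Notch2 (-0.76, called lower). The largest falls were in Id4 (-1.88, SE 0.0782, limma adjusted p = 5.96e-06) and Hey1 (-1.60, SE 0.0830, limma adjusted p = 1.58e-05), which encode helix-loop-helix factors. Of the Sox genes of this list, Sox21 was called lower (-1.13, SE 0.0951, limma adjusted p = 0.000152), and Sox8 (0.21) and Sox2 (-0.20) were not called. Id4 also rose when Nec-1s was added (0.73, SE 0.0852, limma adjusted p = 0.00467).

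The secreted and calcium-binding members were not called in any comparison. Clu (ENSMUSG00000022037, chr14:65968483-65981547, plus strand) had 9.68, 9.60 and 9.60 in DMSO and 9.64, 9.66 and 9.56 with T/S/Z. These groups overlapped, and the change was -0.006 (SE 0.0845, limma adjusted p = 0.963). In T/S/Z/N it had 9.47, 9.51 and 9.48, all below DMSO, with a change of -0.14 (SE 0.0642) that did not pass (limma adjusted p = 0.151). S100b (ENSMUSG00000033208, chr10:76253853-76261159, plus strand) had 4.95, 4.92 and 5.05 in DMSO. It had 4.74, 4.81 and 4.91 with T/S/Z, all below DMSO by a narrow margin, and the change of -0.15 (SE 0.0721) did not pass (limma adjusted p = 0.131). In T/S/Z/N it had 4.81, 4.81 and 4.99, which overlapped DMSO. Dip2a lies on the other strand over an intron of S100b.

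Of 8 other S100 genes, 2 were called lower with T/S/Z and 0 higher. S100a3 changed by -0.77 (SE 0.0783, limma adjusted p = 0.000393) and S100a4 by -0.59 (SE 0.0738, limma adjusted p = 0.000988). S100a6 (-0.48), S100a13 (-0.32), S100a1 (-0.15), S100a16 (-0.13), S100a11 (-0.07) and S100a10 (0.18) were not called. Of 10 tested apolipoproteins, lipid carriers and their receptors (clusterin is apolipoprotein J), Apod fell by 2.27 (SE 0.0909, limma adjusted p = 4.9e-06) on the log2 scale and Fabp5 by 0.84 (SE 0.0874, limma adjusted p = 0.000436), and 0 rose. Of 25 other astrocyte markers, Hepacam, which encodes an adhesion protein, was called lower (-1.02, SE 0.0857, limma adjusted p = 0.000156) and Plpp3, a lipid phosphatase gene, higher (1.47, SE 0.0780, limma adjusted p = 1.74e-05).

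T/S/Z/N against T/S/Z asks which part of the response needs RIPK1 kinase activity. Here 0 of the 10 genes were called, beside 3.1% of all tested genes. At an unadjusted p under 0.05 there were 3, beside 29.9% of all tested genes, a like share. They were Aqp4 (0.29), Gja1 (0.26) and Aldoc (-0.24), and these 3 passed the adjusted p in the fit of all 12 libraries. The median change of the 10 genes was 0.01, beside 0.03 over all tested genes. Other lists did hold calls here, among them Gjb2 and Id4, given above, and the reactive astrocyte genes. Further calls were Slc7a11 (0.91) in glutamate and ion handling, Dio2 (0.67) in the astrocyte markers, Apod (1.87) higher and Lrp1 (-0.60) lower in the lipid list, and Spry2 (-0.60) lower in the FGF list, each with limma adjusted p under the threshold.

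**Figure D3:**
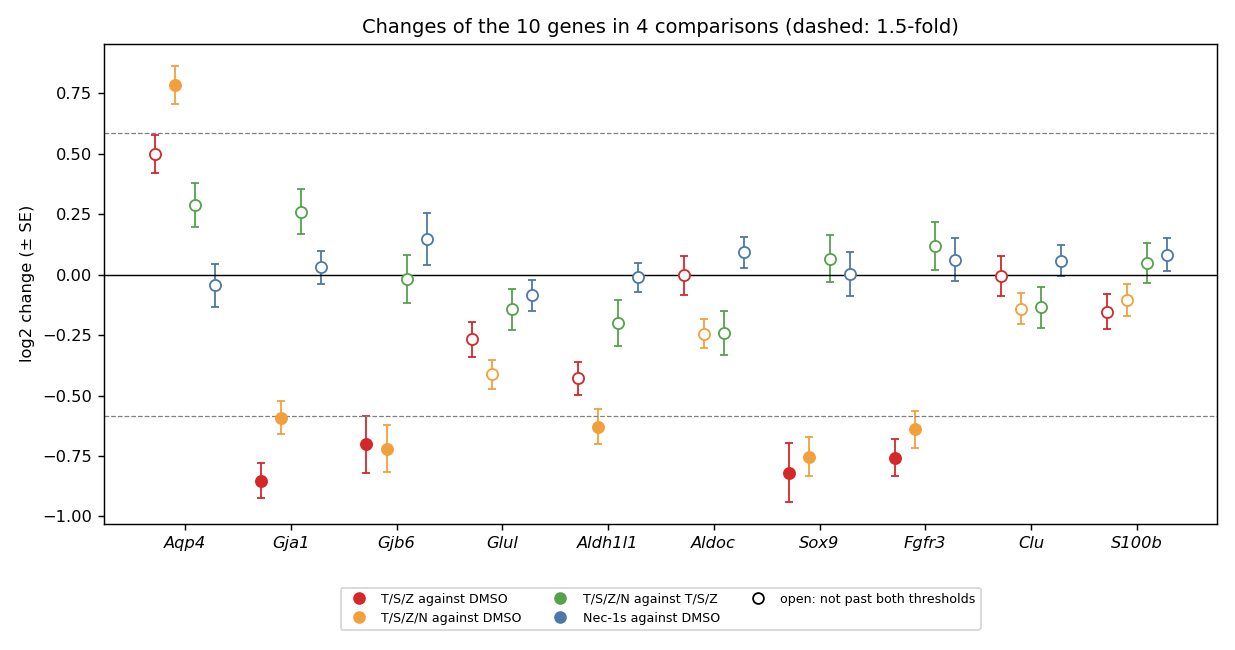
Log2 change of each of the 10 genes in 4 comparisons, with the SE from limma; filled points passed both thresholds, and the dashed lines mark 1.5-fold. Changes with T/S/Z and with T/S/Z/N lie side by side for Gjb6, Sox9 and Fgfr3, whereas no point for T/S/Z/N against T/S/Z or for Nec-1s alone is filled.

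T/S/Z/N against DMSO, the response left with the inhibitor present, had 5 of the 10 genes called lower, beside 4.72% of all tested genes, and 1 called higher, beside 4.36%. The lower genes were Sox9, Gjb6, Fgfr3, Aldh1l1 and Gja1, with changes from -0.75 to -0.59, and the higher gene was Aqp4. The 5 lower calls became 2 with a pseudocount of 5, 3 with median centring, 3 without replicate 1 and 0 with ordinary per-gene variance in place of limma's moderated variance, where the 1 higher call became 0 too. Glul and Aldoc passed the adjusted p alone. The median of the 10 genes was -0.50, beside -0.07 over all tested genes. This comparison shares its DMSO libraries with T/S/Z against DMSO and its T/S/Z/N libraries with the comparison above, so the 3 are not independent.

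Nec-1s alone called 0 of the 10 genes against DMSO, beside 0.0144% of all tested genes. None of the 10 had an unadjusted p under 0.05, against 790 (5.71%) of all tested genes. Their changes ran from -0.09 (Glul) to 0.15 (Gjb6). The interaction, which is the change on adding Nec-1s with T/S/Z minus that without, was called for 0 of the 10, beside 3.37% of all tested genes. At an unadjusted p under 0.05 there were 4, beside 27.2% of all tested genes. Aldoc came closest (-0.33, SE 0.0952, limma adjusted p = 0.0647), and Aqp4 had 0.33 (SE 0.115, limma adjusted p = 0.104).

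**Figure D4:**
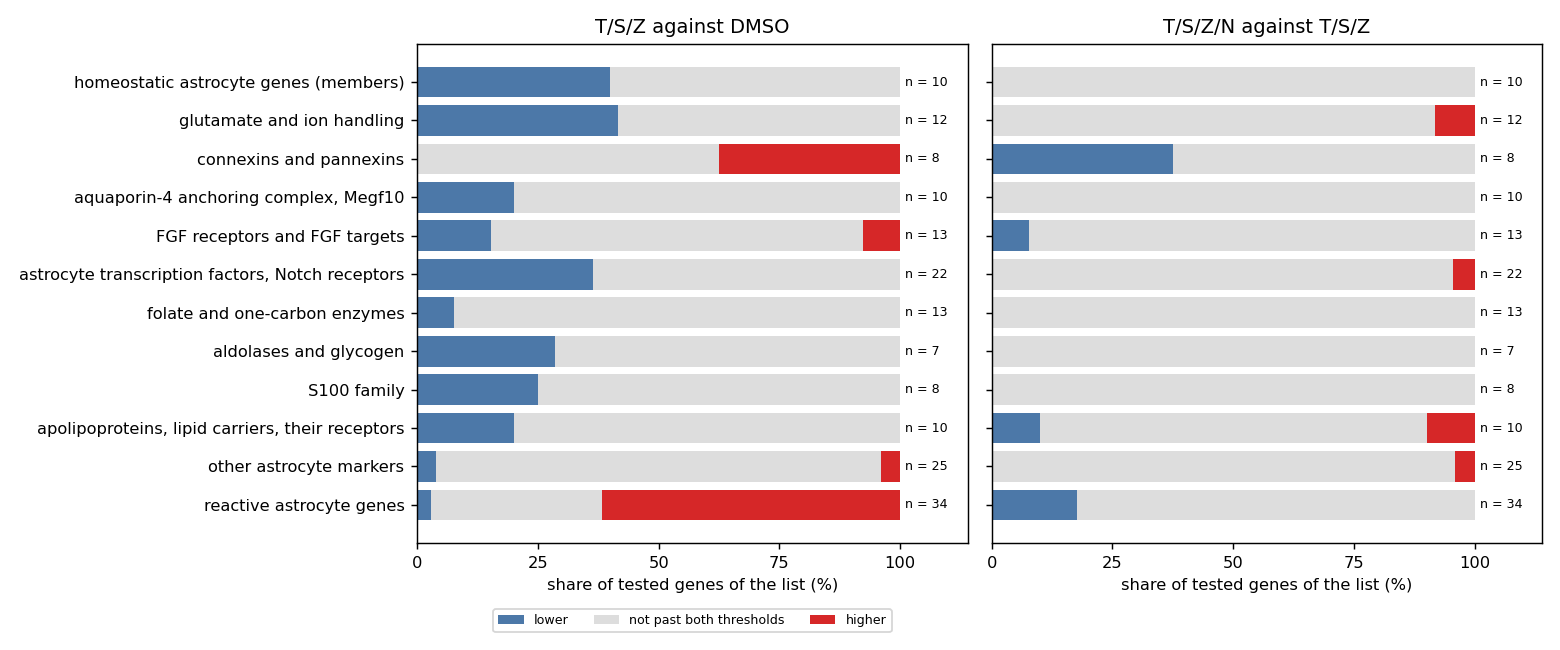
Share of the tested genes of each list that were called lower, called higher or not called, for T/S/Z against DMSO (left) and T/S/Z/N against T/S/Z (right); n is the number tested. With T/S/Z 4 of the 10 homeostatic genes and 5 of 12 glutamate and ion handling genes are lower, and with Nec-1s added no homeostatic gene is called.

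Across the 12 libraries, which share the 4 treatments, Sox9 and Fgfr3 had the highest Pearson correlation among the 10 genes (r = 0.952). Aqp4 was negatively correlated with the 9 others, from -0.652 with S100b to -0.939 with Aldh1l1. Gja1 and Aldoc, which lie side by side in DMSO level, had r = 0.378. Outside the 10, the tested gene most like Gja1 was Ctnnal1 (r = 0.986), that most like Gjb6 was Thy1 (r = 0.983), that most like Fgfr3 was Galnt16 (r = 0.989) and that most like Sox9 was Gtf2i (r = 0.997).

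Markers of other cell types moved in the same libraries. The summed FPKM of 7 fibroblast or meningeal markers was 685 to 701 in DMSO, 126 to 142 with T/S/Z and 548 to 552 with T/S/Z/N. That of 13 microglial markers was 116 to 124, then 71.4 to 75.1, then 102 to 111. In oligodendrocyte-lineage markers the sums were 183 to 210, 120 to 157 and 128 to 136, with Mog listed nowhere in the table. The 10 astrocyte markers, 7 of them genes described here, summed to 3280 to 3349, 2936 to 3117 and 2960 to 2976. Of 7 smooth muscle or pericyte markers, Kcnj8, Abcc9, Myh11 and Des were not listed. The other 3 summed to 1201 to 1420, 1082 to 1262 and 1002 to 1111, mostly through Acta2 and Tagln. In DMSO Acta2 had a mean of 9.21 and Tagln of 9.41 on the log2 scale, whereas Rgs5 was at 1.34. Ependymal markers summed to 197 to 215, 149 to 159 and 155 to 160. The endothelial markers Pecam1, Tek, Cldn5, Vwf and Tie1 and the neuronal markers Snap25, Syt1, Rbfox3, Slc17a6 and Slc17a7 were not listed. The rest of the endothelial markers summed to 17.6 to 19.5, 6.46 to 7.18 and 12.4 to 15.1. For the rest of the neuronal markers the sums were 61.1 to 62.1, 68.2 to 76.5 and 61.6 to 62.3. The part of these cells in the changes of the 10 genes was not tested.

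The series also holds microglia, in a table that was normalized separately, so levels are set side by side without a test. Of the 10 genes, 9 were listed there and Gjb6 was not. Glul was the gene at a like level in microglia, with a mean of 7.62 ± 0.216 (SD, n = 4) in DMSO. It was at 6.30 with TNF/5z-7 (TNF with an inhibitor of the kinase TAK1) and at 6.89 with TNF/5z-7/Nec-1s (T/5z/N). With T/S/Z it was at 6.75 and with T/S/Z/N at 7.11. The 8 others were at 1.79 or lower in DMSO microglia, with Aqp4 at 0.64 and Gja1 at 0.48. With TNF/5z-7 these became 2.14 and 1.33, and with T/5z/N 1.05 and 0.49. With T/S/Z they were 1.66 and 1.42, and with T/S/Z/N 0.50 and 0.39. Clu went from 1.56 in DMSO to 2.32 with TNF/5z-7 and 2.35 with T/S/Z. Means of Aqp4, Gja1, Clu, Aldoc, Fgfr3, Sox9 and S100b were higher with either stimulus than in DMSO microglia. Aldh1l1 was at 1.79 in DMSO, 1.85 with TNF/5z-7 and 1.75 with T/S/Z. Clu was at 1.78 with T/5z/N and at 1.44 with T/S/Z/N.

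**Figure D5:**
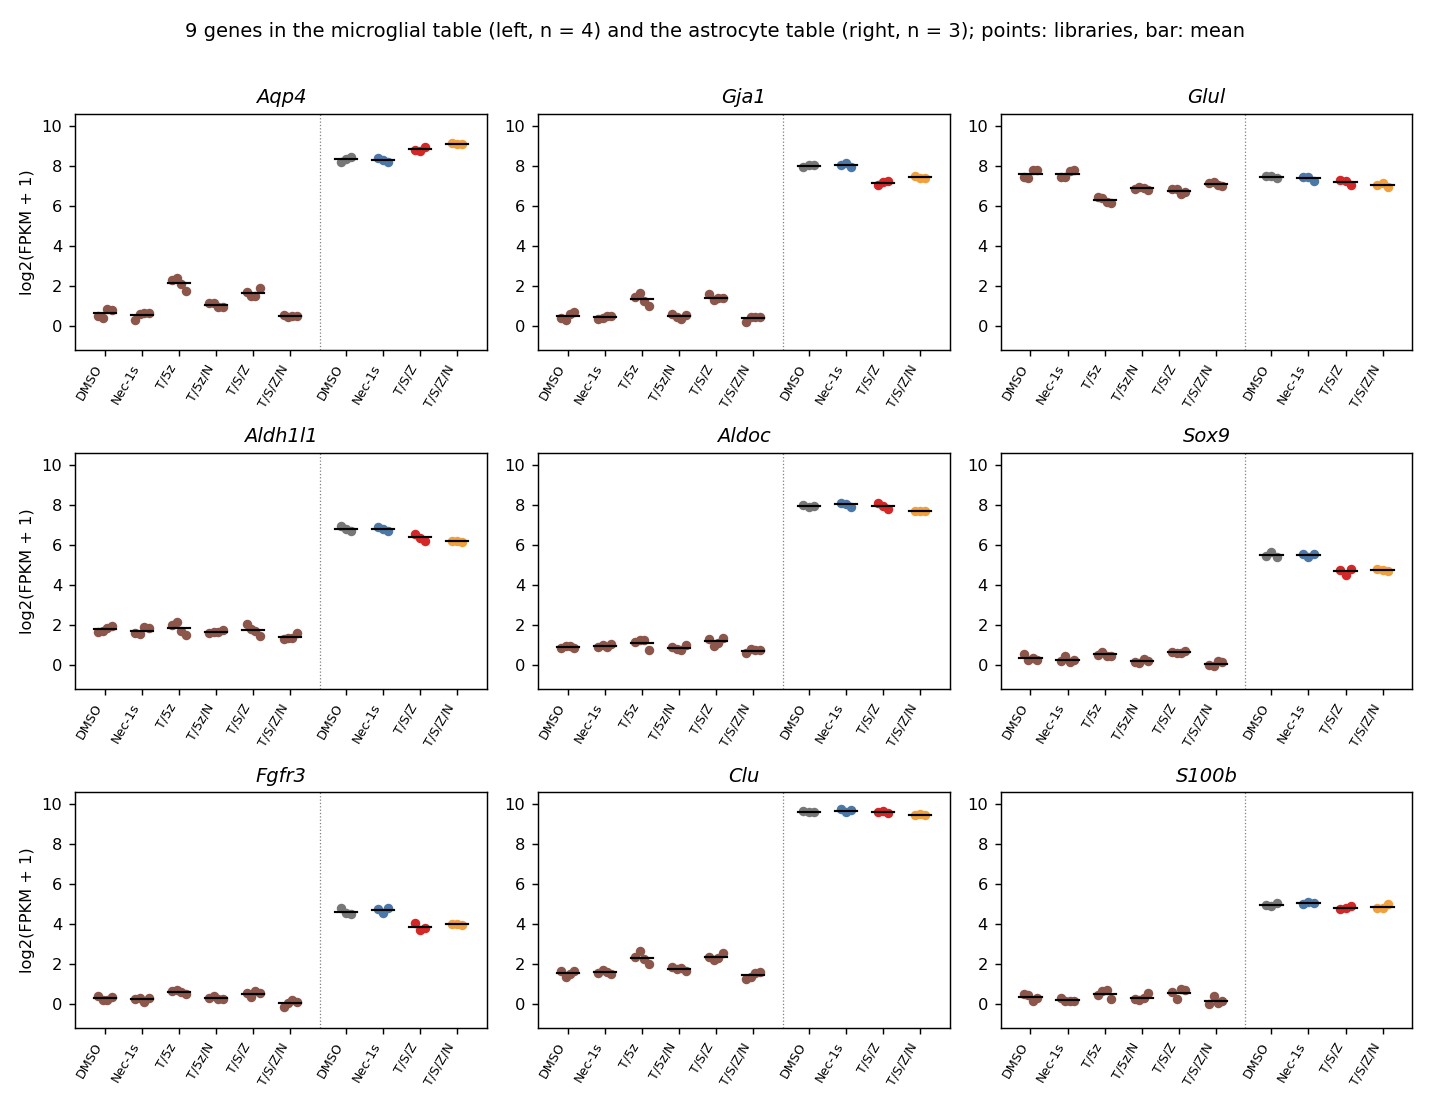
Level of 9 of the genes as log2(FPKM + 1) in the microglial table (left of the dotted line, n = 4) and the astrocyte table (right, n = 3), normalized separately; points are libraries and bars are means. Glul is near 7 in both tables, and the 8 other genes are far lower in microglia. There Aqp4, Gja1, Clu, Aldoc, Fgfr3, Sox9 and S100b are highest with TNF/5z-7 (T/5z) and T/S/Z.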

How the data were processed

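RNA from 12 astrocyte and 24 microglial libraries was sequenced, astrocytes with strand-specific poly(A) libraries. The authors ran OmicSoft Array Studio from alignment to normalization. The deposited values are log2 FPKM. In astrocytes the lowest of them show them to be log2(FPKM + 1), and the 75th percentile was 4.7345 to 4.7356 across libraries. The microglial 75th percentile was 4.1142 to 4.1585, and the lowest microglial value was -1.2932. In the deposited microglial log2 table the replicates had been adjusted to equal means, which left 10728 negative values, so it was used for description only. Deposited start and end matched GENCODE M21 (GRCm38) for 14546 of 14551 astrocyte genes. The deposited annotation marks 8207 of these genes as confounded, Aqp4, Aldh1l1, Fgfr3, Glul and S100b among them, and the mark was not used as a filter. Where a symbol had more than 1 row (Aldoa), the first was used.

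Genes with a log2 value of at least 1 in at least 3 libraries were kept. limma 3.58.1 (R 4.3.3; trended eBayes) was fitted on the 6 libraries of each comparison, or on all 12 for the interaction, with the replicate number as a block, since the study used a paired test. Tests were 2-sided with Benjamini-Hochberg adjustment over all kept genes, and the fits were tested on simulated data. Only 69.1% to 74.6% of low values were within 0.1 of a whole unit, so no count test was run; depth is an estimate after rescaling and covers counting error only. The labels write the control as "DSMO" in astrocytes, read here as DMSO.

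The members and lists were chosen with earlier results of these data known. Named were the 10 genes, their paralogs, the called genes with the 2 largest rises and falls of each other list, and for each called member the most correlated gene. Some genes of the lists are counted but not reported here by name.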

Additional observations from a re-analysis of the deposited data

Results flagged for a closer look

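The 9 genes listed in microglia gave 54 sets of 4 library values, 1 set for each gene and treatment. In 3 of these sets, 1 library stood apart from the rest beyond Dixon's limit, where chance alone flags about 1 set in 20. The sets come from the same 24 libraries, so they are not independent. With Nec-1s in microglia, Aqp4 was at 0.3073 in replicate 1 and between 0.6108 and 0.6433 in the others. In the same group S100b was at 0.3151 in replicate 1 and between 0.1454 and 0.1612 in the others. With T/S/Z/N in microglia, Gja1 was at 0.1972 in replicate 1 and between 0.449 and 0.4587 in the others. All of these are low values in a table whose replicates were adjusted to equal means. Astrocyte groups, with 3 libraries each, were not examined in this way, and no interaction of the 10 genes passed.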

How the results depend on the processing

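No called value changed direction. Of the values recomputed for single genes, 512 stayed called or not called by both thresholds and 23 lost the call. By adjusted p alone 34 of 535 changed side: 28 lost it, 15 of them with ordinary per-gene variance, and 6 gained it (Aqp4, Gja1 and Aldoc in T/S/Z/N against T/S/Z, with all 12 libraries in one fit or without replicate 3). With ordinary per-gene variance in place of moderated variance, the genes lowered by T/S/Z went from 4 to 0, those lowered by T/S/Z/N against DMSO from 5 to 0 and those raised from 1 to 0; Gja1 with T/S/Z then had an adjusted p of 0.053 and Fgfr3 of 0.0589, with limma's fit and 2 residual degrees of freedom. Leaving out a replicate gave 2 to 4 genes lowered by T/S/Z and 3 to 4 by T/S/Z/N against DMSO, the lowest in each case without replicate 1. For T/S/Z/N against DMSO, a pseudocount of 5 left 2 genes lowered and median centring 3. There Gja1 fell under 1.5-fold with both (-0.58 and -0.54) and without replicate 2 (-0.56) or replicate 3 (-0.55). Gjb6 with T/S/Z was not called with a pseudocount of 5 (-0.23) or quantile normalization (-0.55), and it was not in the stricter filter. Over all genes, the 2130 calls with T/S/Z became 985 with a pseudocount of 5, 1094 with a stricter filter and 281 with ordinary variance. The 429 calls of T/S/Z/N against T/S/Z became 180, 225 and 3, and 274 without replicate 2 or 761 without replicate 3. The cause was not tested, apart from the fewer libraries or genes that some settings hold by construction.

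The replicate numbers did not meet the criterion for pairing: for T/S/Z and DMSO the correlations of same-numbered deviations were 0.41, -0.06 and 0.29. Without the replicate block the counts by both thresholds were the same, with 4 genes lowered by T/S/Z, 5 lowered and 1 raised by T/S/Z/N against DMSO, and 0 in the other comparisons. By adjusted p alone, T/S/Z then lowered 5 genes in place of 6, as Glul went from 0.0247 to 0.0585 in limma's fit. Depth limits Gjb6 most, and 3 libraries a group limit all values.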

Other observations

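Beside the homeostatic genes, 34 genes known to rise in reactive astrocytes were tested, and 21 were called higher and 1 lower with T/S/Z, with a median change of 1.00. Cxcl10, a chemokine, rose by 7.49 (SE 0.0965, limma adjusted p = 5.34e-08) on the log2 scale and Lcn2, which encodes lipocalin 2, by 5.06 (SE 0.182, limma adjusted p = 2.96e-06). Emp1, a membrane protein gene, was the 1 called lower (-0.70, SE 0.0744, limma adjusted p = 0.000484). Gfap, the intermediate filament that usually marks reactive astrocytes, was at 10.97 ± 0.0414 in DMSO and 10.78 ± 0.0717 with T/S/Z (SD, n = 3) and was not called. When Nec-1s was added, 6 of these genes were called lower and 0 higher, among them Lcn2 (-1.38, SE 0.116, limma adjusted p = 0.00110), whereas 0 of the 10 homeostatic genes were called. The difference between these lists was not tested.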
